A study of Homo sapiens with 6 samples.

Results

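The genes described here are the 10 core genes of the RNA interference machinery, AGO1, AGO2, AGO3, AGO4, DICER1, DROSHA, DGCR8, TARBP2, PRKRA and XPO5. They were read after siRNA silencing of C1GALT1 in AGS, a line of human gastric adenocarcinoma cells. The members were chosen by name, as the array probes whose RefSeq accession belongs to one of these genes, which gave 14 probes for 10 of the 22438 genes named on the array. The C1GALT1 product is the galactosyltransferase that extends mucin-type O-glycans into the core 1 structure.

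Both groups consisted of AGS cells grown in serum-containing medium and collected 48 h after transfection, so the controls had received siRNA as well. The si-control group had received a nontargeting siRNA, and the si-C1GALT1-3 group an siRNA against C1GALT1. The groups held 3 samples each, read on 6 one-colour Agilent arrays, 1 for each sample. The data hold 1 siRNA sequence against the target, 1 cell line, 1 time point and no untransfected cells. Nothing in the labels says that samples came from separate cultures, so p-values measure only the spread between these samples, which may be technical. Since the RNA was taken from whole cultures, fewer cells with a transcript and less of it per cell cannot be told apart.

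RNA interference uses a short RNA to guide an Argonaute protein to a matching transcript. Endogenous microRNAs are cut out of a nuclear hairpin by the Microprocessor, exported to the cytoplasm, cut again by Dicer and loaded into Argonaute, whereas a synthetic siRNA enters at the loading step. The siRNAs used to silence genes in gastric cancer cells therefore share their Argonautes with the microRNAs of the cell.

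Levels are given as log2 of the scanner's background-corrected signal after quantile normalization over the 6 arrays, and differences as si-C1GALT1-3 minus si-control on that scale. A probe passed when the unadjusted limma p was under 0.01 and the difference at least 2-fold. The share of gene spots well above background ran from 66.2% to 72.7% over the arrays, with no saturated gene spot. On the array of si-control replicate 2, signals were low in a central rectangle of the spot grid, which held 9712 of 60901 gene spots. These spots were masked on that array only, and a probe with no other spot had 2 si-control values. All 8 markers of gastric epithelium, among them EPCAM and KRT18, were well above background on every array used, and 2 of them passed with higher signal in si-C1GALT1-3, CDH17 and ELF3, of which ELF3 did not pass with slide as a block. Of the markers of other cells, 3 of 4 for leukocytes, 2 of 4 for endothelium and 3 of 5 for fibroblasts were well above background on all arrays used, with PTPRC of leukocytes at 13.97 and 13.64 in si-control and si-C1GALT1-3. COL1A2 of fibroblasts was above it on none, and none of the markers of other cells passed. Their part in the results was not tested.

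The silenced gene checks the labels. C1GALT1 read 12.22, 13.03 and 12.62 in si-control replicates 1, 2 and 3, and 11.76, 11.98 and 11.13 in si-C1GALT1-3 replicates 1, 2 and 3. Every si-C1GALT1-3 array was lower than every si-control array. The difference was -1.0 ± 0.31 (SE, n = 3 per group, limma adjusted p = 0.265). At 2.0-fold lower it met the fold threshold, but it did not pass because its unadjusted p was above 0.01. Arrays with the same replicate number lay on the same slide, si-control always in column 1 and si-C1GALT1-3 in column 2, so position on the slide and treatment cannot be told apart in any comparison here.

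None of the 10 members passed. Across all 58195 probes tested, 2.64% passed in either direction, 1.65% with higher and 0.991% with lower signal in si-C1GALT1-3. The probes with higher signal made up 62.5% of those that passed, against 72.6% without normalization between arrays. Of all 22438 named genes, each read from its brightest probe like the members, 466 passed with higher and 299 with lower signal. At an unadjusted p under 0.05 stood 3 of the 10, PRKRA, AGO3 and AGO4, beside 13.8% of all probes and 3732 of 22438 named genes. None had an adjusted p under 0.05, beside 0.0842% of all probes and 31 of 22438 named genes. By an unmoderated equal-variance test in place of limma's moderated one none passed either, and 2 members had p under 0.05. The median difference of the members was 0.06 on the log2 scale, beside 0.02 over all named genes. The 95% interval of the difference lay inside 2-fold in both directions for 9 of the 10 members, or 90%, beside 51.8% of all named genes. The exception was AGO4. Over all 14 member probes it lay inside for 12, or 85.7%, beside 48.2% of all probes tested. There the second AGO1 probe was an exception as well. The median SE was 0.18 for the members and 0.24 for all named genes, which include dim ones, and genes of like signal were not compared. All 14 probes were well above background on each array where they were read.

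**Figure D1:**
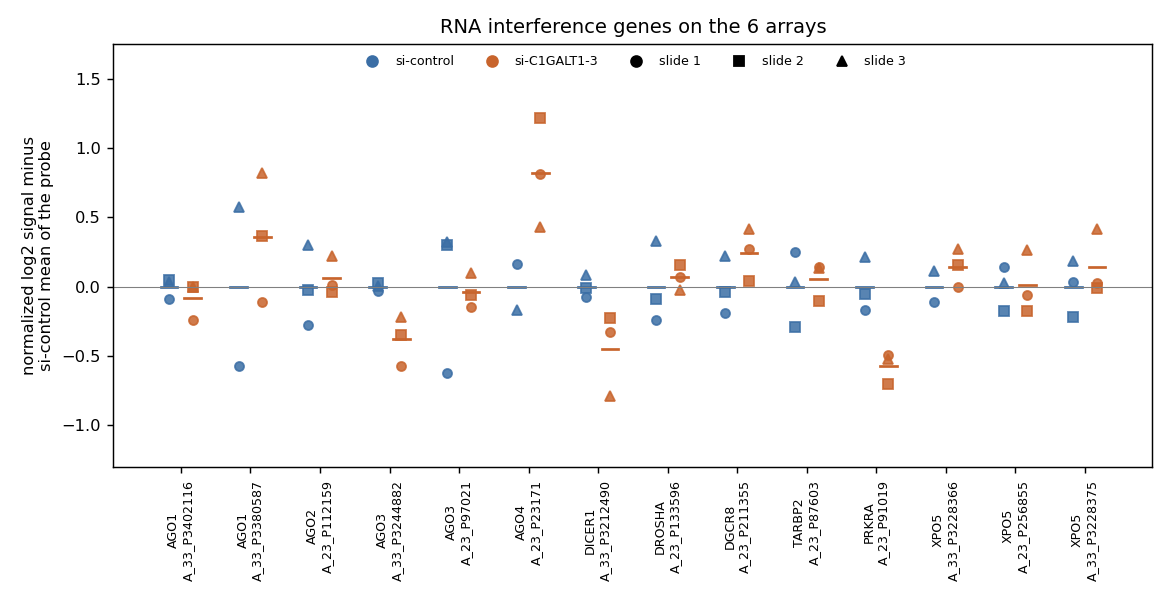
Normalized log2 signal of the 14 probes of the 10 genes on each array, drawn as the difference from the mean of the si-control arrays for that probe. Points are single arrays, symbols mark the slide and short lines the group means. The si-C1GALT1-3 points lie below all si-control points for PRKRA, DICER1 and the first AGO3 probe, and above them for AGO4, which has 2 si-control points.

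In the nucleus, DROSHA is the nuclease of the Microprocessor and cuts the primary microRNA transcript at the base of its hairpin. Its probe read 10.98, 11.13 and 11.54 in si-control replicates 1, 2 and 3, and 11.29, 11.37 and 11.20 in si-C1GALT1-3. All 3 si-C1GALT1-3 values lay within the range of the si-control values. The difference was 0.07 ± 0.19 (SE, n = 3 per group, limma adjusted p = 0.930), with a 95% interval from -0.39 to 0.53.

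DGCR8 is the double-stranded RNA binding partner that positions DROSHA on the hairpin. It is shown here with sequence because its own transcript carries hairpins, which the Microprocessor is known to cut, so that its mRNA is also a substrate of the complex it belongs to. In RefSeq (GRCh38.p14) 3 mature microRNAs lie within the gene on the plus strand of chromosome 22, and they are printed 5′ to 3′ with the seed, bases 2 to 8, in capitals.
hsa-miR-3618, chr22:20085797-20085818: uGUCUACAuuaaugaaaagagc
hsa-miR-1306-5p, chr22:20086072-20086093: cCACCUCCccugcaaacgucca
hsa-miR-1306-3p, chr22:20086112-20086129: aCGUUGGCucugguggug
The 3 seeds differ from each other, and none of the other mature microRNAs in the table of 2545 shares one of them. The microRNAs themselves were not measured on these arrays.

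The DGCR8 probe read 10.28, 10.44 and 10.70 in si-control replicates 1, 2 and 3, and 10.74, 10.51 and 10.89 in si-C1GALT1-3. Each si-C1GALT1-3 array was above the si-control array of its slide, by 0.46, 0.07 and 0.19, although the groups overlapped. The difference was 0.24 ± 0.18 (SE, n = 3 per group, limma adjusted p = 0.615), with an interval from -0.20 to 0.68, which is within the spread between arrays. It was 0.15 without si-control replicate 1 and also without si-C1GALT1-3 replicate 3.

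XPO5, exportin 5, carries the precursor hairpin from the nucleus to the cytoplasm. The brightest of its 3 probes, A_33_P3228366, lay in the masked region and read 12.34 and 12.56 in si-control replicates 1 and 3, and 12.44, 12.60 and 12.72 in si-C1GALT1-3. The groups overlapped, and the difference was 0.14 ± 0.18 (SE, n = 2 and 3, limma adjusted p = 0.790). Without single arrays it ranged from 0.027 (without si-control replicate 1) to 0.25 (without si-control replicate 3), and was 0.074 without si-C1GALT1-3 replicate 3 and 0.22 without si-C1GALT1-3 replicate 1. The other XPO5 probes, both outside the region, gave 0.01 ± 0.18 and 0.14 ± 0.19, so the 3 probes agreed within their errors. With the region kept, the first probe would have read 3.25 on si-control replicate 2 and the difference would have been 3.19 ± 2.59.

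In the cytoplasm, DICER1 is the nuclease that cuts the precursor into the short duplex. It read 10.98, 11.04 and 11.13 in si-control replicates 1, 2 and 3, and 10.72, 10.82 and 10.26 in si-C1GALT1-3. All si-C1GALT1-3 arrays were below all si-control arrays, and replicate 3 was the lowest. The difference was -0.45 ± 0.19 (SE, n = 3 per group, limma adjusted p = 0.380), which is 1.36-fold lower, with an interval from -0.91 to 0.02. Without si-C1GALT1-3 replicate 3 it was -0.27.

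TARBP2 and PRKRA are related double-stranded RNA binding proteins that sit on Dicer as alternative partners. PRKRA, also known as PACT, is an activator of the kinase PKR, which TARBP2 inhibits. TARBP2 read 12.43, 11.89 and 12.21 in si-control replicates 1, 2 and 3, and 12.32, 12.07 and 12.31 in si-C1GALT1-3. The si-C1GALT1-3 values lay inside the si-control range, with a difference of 0.06 ± 0.19 (SE, n = 3 per group, limma adjusted p = 0.946) and an interval from -0.41 to 0.52.

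PRKRA read 10.39, 10.50 and 10.77 in si-control replicates 1, 2 and 3, and 10.06, 9.85 and 10.03 in si-C1GALT1-3. Its si-C1GALT1-3 arrays were all below its si-control arrays. On slides 1, 2 and 3 the paired differences were -0.33, -0.65 and -0.74. The fitted difference was -0.57 ± 0.16 (SE, n = 3 per group), or 1.49-fold lower, with the lowest adjusted p of the members (limma adjusted p = 0.226) and an interval from -0.96 to -0.18. That interval holds neither 0 nor a 2-fold fall. Since PRKRA overlaps the long noncoding RNA gene CHROMR in RefSeq, the probes of CHROMR were read as well, chosen after their values were seen. They gave differences of 0.28 ± 0.27, 1.26 ± 0.40 and 0.83 ± 0.25, none of which passed, although the second passed with slide as a block, at the same difference. A direct comparison of TARBP2 with PRKRA was not tested.

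**Figure D2:**
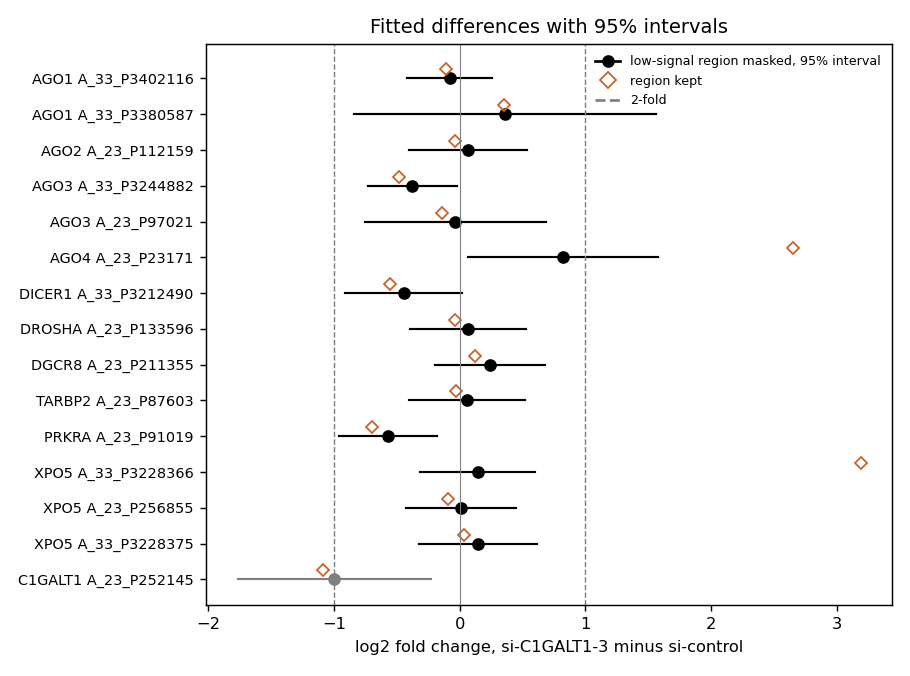
Fitted log2 difference, si-C1GALT1-3 minus si-control, for each probe of the 10 genes and for C1GALT1 (grey), with 95% limma intervals (bars), dashed lines at 2-fold in both directions, and the value obtained when the low-signal region of si-control replicate 2 is kept (open diamonds). The 2 diamonds far to the right are AGO4 at 2.65 and the first XPO5 probe at 3.19.

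The Argonautes bind the guide strand and carry out silencing, and AGO2 is the one known for cutting transcripts matched by an siRNA. AGO2 was the only member printed more than once, as 1 probe at 10 places on each array. Averaged over its spots it read 10.88, 11.13 and 11.45 in si-control replicates 1, 2 and 3, and 11.17, 11.12 and 11.37 in si-C1GALT1-3. All si-C1GALT1-3 values lay inside the si-control range. The difference was 0.07 ± 0.19 (SE, n = 3 per group, limma adjusted p = 0.937), with an interval from -0.41 to 0.54.

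The repeated AGO2 spots also give the error within an array. The SD over the spots of an array, between 0.036 and 0.154, was below the SD between si-control arrays of 0.287 and, on most arrays, below that between si-C1GALT1-3 arrays of 0.135. The mean of AGO2 on an array was thus measured more finely than it varied between arrays. Both AGO2 places inside the masked region read 9.93 and 3.25 on si-control replicate 2 when kept, beside a mean of 11.40 over the places outside it on that array. On si-control replicate 3 the same 2 places averaged 11.46, beside 11.39 outside.

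**Figure D3:**
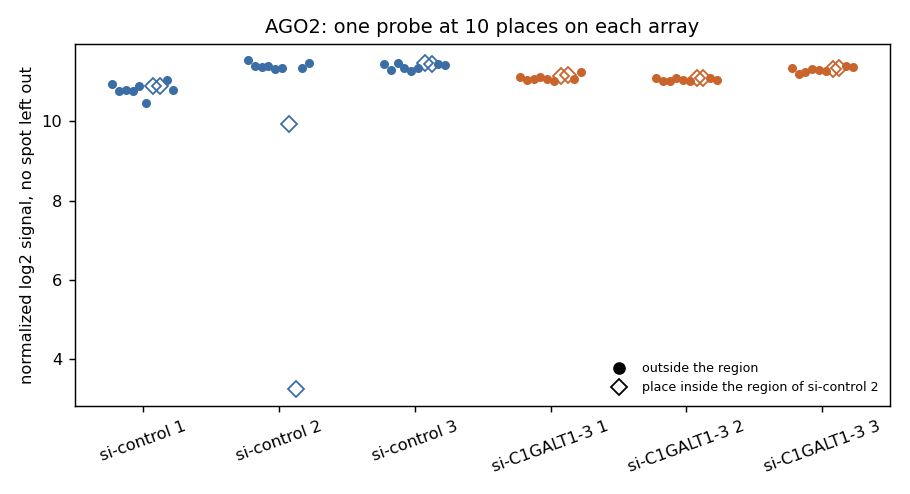
Normalized log2 signal of the 10 spots of the AGO2 probe on each array, with no spot left out; open diamonds are the 2 places that lie in the low-signal region of si-control replicate 2. On that array the diamonds fall to 9.93 and 3.25, while on the other 5 arrays they lie among the other spots.

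**Figure D4:**
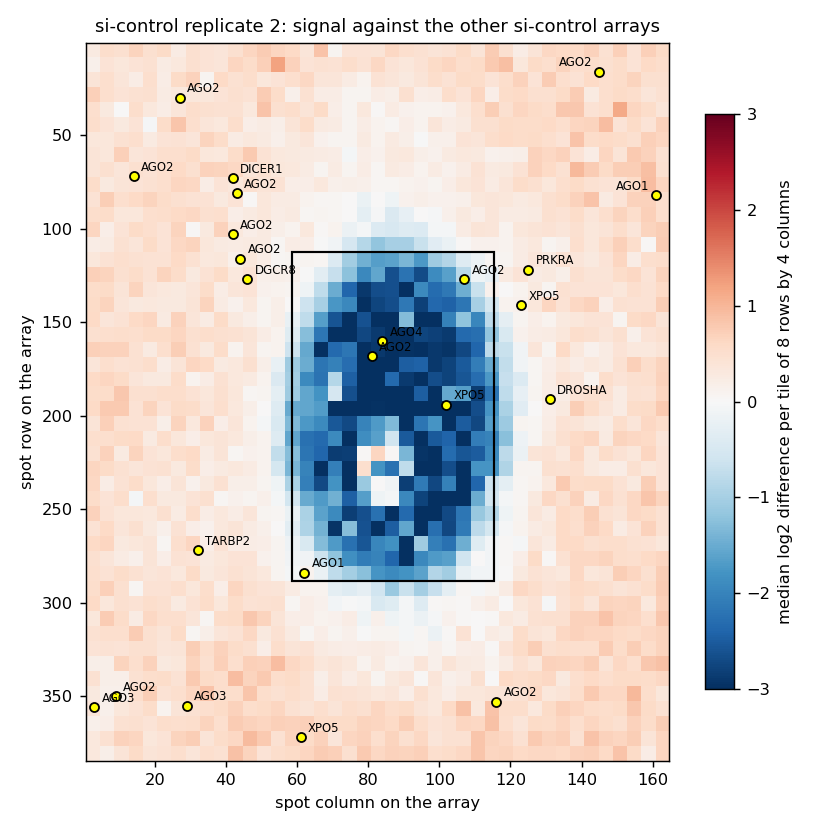
Map of si-control replicate 2, with spot column and row on the axes and, as colour, the median log2 difference from the mean of the other si-control arrays in tiles of 8 rows by 4 columns. Yellow points are the spots of the 10 genes and the box is the masked region. The spots of AGO4, 1 probe of XPO5 and 1 probe of AGO1, and 2 of the 10 AGO2 spots, lie in the box.

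AGO1 loads microRNAs and siRNAs, and human AGO1 is usually described as lacking efficient cutting activity. The brighter of its 2 probes, A_33_P3402116, read 17.63, 17.77 and 17.76 in si-control replicates 1, 2 and 3, and 17.48, 17.72 and 17.72 in si-C1GALT1-3. The groups overlapped, and the difference was -0.08 ± 0.14 (SE, n = 3 per group, limma adjusted p = 0.860), with an interval from -0.42 to 0.26, the narrowest of the members. Without single arrays it ranged from -0.13 (without si-control replicate 1) to -0.00068 (without si-C1GALT1-3 replicate 1). Before normalization this probe gave signals from 172569 to 232502, none saturated. The other AGO1 probe, A_33_P3380587, lay in the masked region and read 8.90 and 10.05 in si-control replicates 1 and 3, and 9.37, 9.85 and 10.30 in si-C1GALT1-3. Its difference of 0.36 ± 0.46 had the opposite sign, with an interval from -0.84 to 1.56 that contains that of the brighter probe. The mean signal of the brighter probe was above that of 99.8% of all probes, and that of the other above 68.7%. Which of these 2 levels reports AGO1 was not tested.

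AGO3 was read by 2 probes that did not give the same picture. The brighter, A_33_P3244882, read 11.19, 11.25 and 11.23 in si-control replicates 1, 2 and 3, and 10.65, 10.88 and 11.01 in si-C1GALT1-3. Its si-control arrays lay close together (SD 0.029) and above every si-C1GALT1-3 array. The difference was -0.38 ± 0.14 (SE, n = 3 per group, limma adjusted p = 0.339), or 1.30-fold lower. The second, A_23_P97021, read 10.15, 11.08 and 11.10 in si-control, and 10.63, 10.72 and 10.87 in si-C1GALT1-3. Here si-control replicate 1 stood below all other arrays, the groups overlapped, and the difference was -0.04 ± 0.29 (SE, n = 3 per group, limma adjusted p = 0.986).

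AGO4 had 1 probe, in the masked region, and read 8.96 and 8.62 in si-control replicates 1 and 3, and 9.60, 10.01 and 9.23 in si-C1GALT1-3. It was the only member with every si-C1GALT1-3 array above the si-control arrays. On slides 1 and 3, where both arrays were read, the paired differences were 0.65 and 0.60. The fitted difference was 0.82 ± 0.29 (SE, n = 2 and 3, limma adjusted p = 0.332), or 1.77-fold higher, with an interval from 0.06 to 1.58 that does not exclude a 2-fold rise. With slide as a block the difference was 0.62, and with the region kept, where AGO4 read 3.25 on si-control replicate 2, it was 2.65 ± 1.56. In RefSeq AGO1, AGO3 and AGO4 are neighbours on chromosome 1, and their brightest probes gave -0.08, -0.38 and 0.82. The second probes of AGO1 and AGO3 gave 0.36 and -0.04, and a difference between these genes was not tested.

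Seen across the members, the groups did not overlap for 4 of 10. These were PRKRA, DICER1 and AGO3 with lower signal in si-C1GALT1-3, beside 10.4% of all probes, and AGO4 with higher signal, beside 11.0%. Over all 22438 named genes, each read from its brightest probe, the groups did not overlap for 2521 with lower and 3146 with higher signal. In size, the 3 lower values stood at -0.57, -0.45 and -0.38, and their intervals overlap. The differences of DROSHA, DGCR8, TARBP2, XPO5, AGO1 and AGO2 lay between -0.08 and 0.24.

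The other genes of the pathway were read from 7 lists grouped by role, in which 109 of 111 genes had a probe. Of these, 2 passed, both with lower signal in si-C1GALT1-3, IPO8 and EGFR, while none passed with higher signal. For either direction the share over all probes was 2.64%. Of the 22438 named genes, 466 passed with higher and 299 with lower signal. The median over the lists was 0.11 on the log2 scale, beside 0.02 over all named genes. The groups did not overlap for 21 of the 109 with higher signal, beside 11.0% of all probes, and for 14 with lower signal, beside 10.4%. In export and import these were 3 of 7, all lower. Over all 22438 named genes the groups did not overlap for 3146 with higher and 2521 with lower signal.

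IPO8, importin 8, is a nuclear import receptor that has been found with Argonautes. It read 10.94, 11.54 and 11.40 in si-control replicates 1, 2 and 3, and 9.80, 10.14 and 9.27 in si-C1GALT1-3. The lowest si-control value stood above the highest si-C1GALT1-3 value. It fell by 1.55 ± 0.28 (SE, n = 3 per group, limma adjusted p = 0.130), or 2.94-fold. Among the 7 export and import genes it was the only one to pass, and the list's median was -0.32 with the mask and 0.13 with the region kept. In that list XPO1, TNPO1 and XPOT had their only spot in the region, so each had 2 si-control values. With the region kept they gave 0.38, 2.02 and 2.94, against -0.23, -0.37 and -0.12 with the mask. At the other end of that list was RAN, the GTPase that drives transport through the nuclear pore, with 0.22 ± 0.33.

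EGFR, the epidermal growth factor receptor, stood in the list of Argonaute turnover and modification because it is known to phosphorylate AGO2. Its brightest probe read 12.51, 12.47 and 11.84 in si-control replicates 1, 2 and 3, and 10.70, 10.92 and 11.01 in si-C1GALT1-3. It fell by 1.40 ± 0.23 (SE, n = 3 per group, limma adjusted p = 0.112), or 2.64-fold. The other 2 EGFR probes gave -1.12 ± 0.31 and -1.49 ± 0.21, so all 3 were lower, and the groups did not overlap for any of them. The probe at -1.12 did not pass, while that at -1.49 did. Each of the 3 probes is assigned to a different RefSeq transcript of EGFR. Which forms of the receptor they report was not tested. Without normalization between arrays the brightest probe gave -1.27 (limma adjusted p = 0.554) and did not pass. At the other end of the list was ANKRD52, a subunit of the phosphatase complex that acts on AGO2, with 0.89 ± 0.26.

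Among 16 partners of the Microprocessor none passed. Their differences ran from -0.59 ± 0.20 for METTL3, which methylates RNA including primary microRNAs, to 0.54 ± 0.31 for SAFB2, an RNA binding protein that assists cleavage of some hairpins. The median of 0.12 turned to -0.13 without si-control replicate 1. None of 20 partners of loading and dicing passed. The extremes were DNAJA2, a co-chaperone of HSP70, and TSNAX, which forms with translin the nuclease that removes passenger strand fragments.

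DNAJA2 read 10.24, 10.04 and 10.28 in si-control replicates 1, 2 and 3, and 9.19, 9.16 and 9.29 in si-C1GALT1-3. Its difference of -0.98 ± 0.13 (SE, n = 3 per group, limma adjusted p = 0.091) had a smaller adjusted p than those of IPO8 and EGFR but was 1.97-fold, short of 2-fold. With a wider mask of the low-signal region DNAJA2 gave -1.05 ± 0.14 and passed. TSNAX gave 0.67 ± 0.28. The kinase EIF2AK2, which is PKR, gave 0.36 ± 0.17 and the helicase MOV10 0.56 ± 0.20, both named after their values were seen, and neither passed. The MOV10 probe had its only spot in the masked region and so 2 si-control values. With the region kept it gave 3.64 ± 2.62. The other MOV10 probe, outside the region, gave 0.43 ± 0.16.

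The 37 silencing effectors act after Argonaute has bound, through the TNRC6 scaffold, the deadenylases and the decapping enzymes. None passed, 27 were higher and 10 lower, and their median was 0.18. The groups did not overlap, with higher signal, for 11 of 37, beside 11.0% of all probes, and with lower signal for 2 of 37, beside 10.4%. Over all 22438 named genes, read from their brightest probe like these, they did not overlap for 3146 with higher and 2521 with lower signal. Over all alternatives the median lay between 0.13 and 0.31. PAN3, a subunit of the PAN2-PAN3 deadenylase, had the largest difference, 1.77 ± 1.01, which rested on 1 spot. It read 10.86, 7.31 and 10.93 in si-control replicates 1, 2 and 3, and 11.48, 11.63 and 11.31 in si-C1GALT1-3. The low si-control value lay just outside the masked region, and with a wider mask the difference was 0.58 ± 0.17. The other PAN3 probe gave 0.49 ± 0.32, and its groups overlapped.

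The lowest of the silencing effectors was AJUBA, an adaptor of the LIM family, with -0.60 ± 0.16. Named after their values were seen, PAN2 gave 1.16 ± 0.47, and the antiproliferative factors TOB1 and BTG2, which recruit the CCR4-NOT deadenylase, gave 0.98 ± 0.26 and 0.83 ± 0.35. None of these 3 passed. With slide as a block PAN2 passed, at the same difference.

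Among the 16 genes of microRNA tailing and decay none passed. The poly(A) polymerase TENT2, which adds adenosines to mature microRNAs, was lowest with -0.91 ± 0.22 (SE, n = 3 per group, limma adjusted p = 0.193), and BCDIN3D, which methylates the 5′ phosphate of precursors, was highest with 0.62 ± 0.13. LIN28A and LIN28B, which block maturation of the let-7 family, were well above background on none and on 1 of the 6 arrays. Of the PIWI clade, the germline relatives of the Argonautes, none of 4 passed, with differences from -0.55 ± 0.27 for PIWIL2 to 0.28 ± 0.30 for PIWIL4. No array had PIWIL3 well above background.

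**Figure D5:**
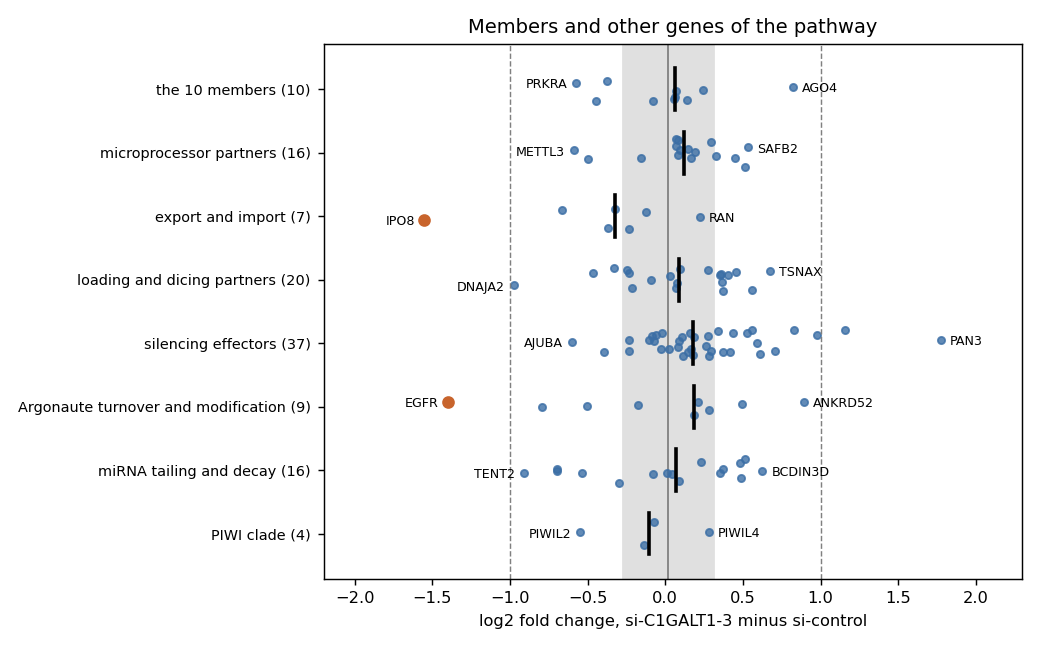
Fitted log2 difference, si-C1GALT1-3 minus si-control, for the 10 genes and the 7 lists of other pathway genes, with 1 point per gene, black lines at list medians and dashed lines at 2-fold. The grey band spans the middle quartiles of all named genes and the grey line their median of 0.02. Orange points, IPO8 and EGFR, passed, while the PAN3 point at 1.77 rests on 1 low si-control spot.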

How the data were processed

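AGS cells of 2 groups, si-control and si-C1GALT1-3, were read on 3 one-colour arrays each. The authors deposited the fluorescence intensity of each spot as given by Agilent Feature Extraction 10.5.1.1 (submitters' processing notes), corrected for background, with no normalization across arrays. The deposited series table holds background-subtracted intensity. Log2 was taken here of the deposited processed intensity of 60901 gene spots. Spots marked as outliers (100 to 424 per array) and the masked region of si-control replicate 2 were set to missing, and arrays were quantile normalized. Spots of a probe were averaged, and groups compared with limma 3.58.1 (lmFit, eBayes) in R 4.3.3, with Benjamini-Hochberg adjustment over 58195 probes. The script was tested on simulated data. The number of arrays limits the precision.

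Probes were named through RefSeq accessions, and a gene was read from its brightest probe. The array files name another build than RefSeq, so coordinates are given only for RefSeq microRNAs. The named genes are the members, C1GALT1, list genes that passed (at most 6, otherwise the 3 largest rises and falls) and each list's extremes. The members and lists were chosen with earlier results of these data known. Arrays of the same number shared a slide per the file headers. The correlation of their deviations from group means was 0.198, 0.215 and 0.329, so the numbers pair the arrays. Alternatives were another or no normalization, the region kept or masked more widely, normexp with an offset of 50 on median signals (mean signals not used here), dim probes left out, slide as replicate block, a trend and robust prior, an unmoderated equal-variance test, outlier spots kept, the series table with a floor of 10, the mean over the probes of a gene, and leaving out each array.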

Additional observations from a re-analysis of the deposited data

How the results depend on the processing

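None of the 10 members passed under any alternative, and with slide as replicate block (0 members) no member's call changed. C1GALT1 passed, at -1.0, with dim probes left out, and ranged from -1.20 to -0.75 when single arrays were left out. Probes that passed numbered 1538, against 920 with normexp, 896 by an unmoderated equal-variance test and 1604 with the replicate block, and between 1126 and 1781 without single arrays. The share with higher signal was 62.5%, against 40.2% with the region kept, 72.6% without normalization between arrays and 52.2% without si-control replicate 1. Of all probes, 49 had a limma adjusted p under 0.05, the lowest being 0.0499. That count became 0 with the region kept, without normalization between arrays and with the replicate block. It was also 0 with outlier spots kept, with the trend and robust prior and in every fit without a single array. By the unmoderated equal-variance test it was 2, and with normalization to the 75th percentile 31. Higher counts came with the wider mask (55), the deposited series values (74), normexp (429) and dim probes left out (545). Of the pathway genes, 2 to 3 passed under every alternative, with DNAJA2 added by the region kept, by the wider mask and in the fits that lacked si-control replicate 2 or si-C1GALT1-3 replicate 3, PAN2 by the replicate block, ANKRD52 without si-control replicate 3, and TOB1 in place of EGFR without normalization. Differences near 0 changed sign. AGO1 gave 0.015 without normalization and 0.094 as the mean over its probes. With the region kept, AGO2, DROSHA and TARBP2 gave -0.037, -0.035 and -0.033. When single arrays were left out, AGO2 ranged from -0.071 to 0.21, DROSHA from -0.049 to 0.23 (both lowest without si-control replicate 1) and TARBP2 from -0.088 (without si-control replicate 2) to 0.18. The cause was not tested. Normalization to the 75th percentile moved the median of all probes to -0.11. The median SE over all probes was 0.26, which sets the size that 3 arrays per group resolve.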
